A study of Caenorhabditis elegans with 2 samples.

Results

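The 5 bHLH-PAS genes of Caenorhabditis elegans, aha-1, ahr-1, hif-1, cky-1 and hlh-34, were examined for binding of AHA-1 itself. They were chosen by name, as 5 of the 19973 protein-coding genes of the Ensembl annotation, and all 5 were found there. Chromatin immunoprecipitation sequencing (ChIP-seq) had been carried out on whole first-stage (L1) larvae of mixed sex of strain OP124, whose genotype is given as unc-119(ed3) III; wgIs124. The labels give 2 biological replicates in 1 group. The immunoprecipitated factor is described as an eGFP fusion of AHA-1, and the labels give neither the copy number of the transgene nor the promoter that drives it. With no second condition, and with members listed with earlier results of these data known, the values below are descriptions without a test.

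Proteins of the bHLH-PAS family join a basic helix-loop-helix domain, which contacts DNA, to PAS domains, through which they dimerise. AHA-1 corresponds to mammalian ARNT, the shared subunit with which the other members pair. HIF-1 is the oxygen-regulated subunit of the hypoxia-inducible factor, AHR-1 is the ortholog of the aryl hydrocarbon receptor and acts in neuronal differentiation, CKY-1 is related to the mammalian activity-regulated factor NPAS4, and HLH-34 is a family member known from neurons. In mammals, dimers of ARNT with HIF bind the core word ACGTG, dimers with the aryl hydrocarbon receptor bind GCGTG, and ARNT dimers with itself bind CACGTG.

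For each gene a window was read from 3 kb upstream of its outermost start to its end. The relaxed lists, which hold peaks together with background, had 30000 regions for the pooled replicates, 24611 for replicate 1 and 18195 for replicate 2 on the ce11 assembly. The authors kept 530 of the pooled regions as thresholded peaks, by the irreproducible discovery rate (IDR), a measure of agreement between replicates. The kept regions were also the 530 strongest by pooled signal. The lowest of them had 18.4 and the highest region left out had 18.3. A place in that list does not show agreement at each peak, since 26 of them overlapped no region of replicate 2. The signal of a region is the authors' own value from peak calling against a control. Its scale is not stated and the number of reads is unknown, so a signal is read within its own list. Pooled signals began at 2.88, with a median of 4.27 over all regions and 26.9 over the thresholded peaks. The replicate lists began at 2.00 and had medians of 3.16 and 2.88 for replicates 1 and 2.

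The strongest pooled region of each member on chromosome V is printed to show which core words lie under the strong hif-1 peak and under the weak regions of cky-1 and hlh-34. Each is 300 bases from the middle of the region as deposited, on the strand of the gene, from the ce11 reference sequence, with any ACGTG or GCGTG on either strand in capitals. The hif-1 sequence is chrV:20778290-20778589, the cky-1 sequence chrV:12737785-12738084 (both plus strand) and the hlh-34 sequence chrV:13708729-13709028 (minus strand).
hif-1: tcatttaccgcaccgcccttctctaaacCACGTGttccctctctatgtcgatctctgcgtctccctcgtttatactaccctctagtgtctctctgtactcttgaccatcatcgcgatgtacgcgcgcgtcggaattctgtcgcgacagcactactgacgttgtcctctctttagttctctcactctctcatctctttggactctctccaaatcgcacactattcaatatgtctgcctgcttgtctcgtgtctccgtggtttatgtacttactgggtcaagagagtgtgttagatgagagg
cky-1: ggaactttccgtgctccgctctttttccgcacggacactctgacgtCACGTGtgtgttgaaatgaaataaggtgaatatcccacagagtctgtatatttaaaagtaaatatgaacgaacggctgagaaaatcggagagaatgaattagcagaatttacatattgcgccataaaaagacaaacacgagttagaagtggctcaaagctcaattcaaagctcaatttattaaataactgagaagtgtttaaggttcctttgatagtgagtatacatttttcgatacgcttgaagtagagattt
hlh-34: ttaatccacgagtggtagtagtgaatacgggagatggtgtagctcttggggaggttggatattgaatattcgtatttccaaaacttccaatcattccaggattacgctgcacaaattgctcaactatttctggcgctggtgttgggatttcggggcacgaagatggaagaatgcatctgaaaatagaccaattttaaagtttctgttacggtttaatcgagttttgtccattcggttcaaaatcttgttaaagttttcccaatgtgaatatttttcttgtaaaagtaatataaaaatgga

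In hif-1 the capitals mark a CACGTG, which holds ACGTG on both strands. It lay on the plus strand from 20778318 to 20778323, and its centre was 119.5 bp from the pooled summit, on the side away from the gene. No ACGTG or GCGTG was found within 100 bp of that summit. In cky-1 a CACGTG from 12737831 to 12737836 lay 101.5 bp from the summit. The hlh-34 sequence held none of these words. Over the whole region as deposited, CACGTG was present in 5.77% of all pooled regions and in 12.8% of the thresholded peaks.

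AHA-1 had thresholded peaks at hif-1 and at aha-1 itself, so that 2 of the 5 members had one in the gene window. By the same rule, 4.21% of all protein-coding genes had one. The call depended on the window. From 1 kb upstream to the gene end, aha-1 alone had a peak (2.97% of genes), and likewise from 1000 bp upstream to 200 bp downstream of any transcript start (2.73% of genes). Where a summit counted for its nearest protein-coding start alone, hif-1 was the 1 member with a peak (2.21% of genes). The hif-1 peak was the stronger, at rank 120 of the pooled list, followed by the aha-1 peak at rank 255. The strongest region of ahr-1 ranked 4060, and those of hlh-34 and cky-1 ranked 28164 and 29492, near the end of the list. A strongest signal at least as high as that of hif-1 was found in 0.971% of protein-coding genes, and the shares were 2.03% for aha-1, 22.7% for ahr-1, 78.0% for hlh-34 and 79.3% for cky-1. The windows of the members were 4429 to 11583 bp long, against a median of 5027 bp over all genes, and a longer window can hold more regions.

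**Figure D1:**
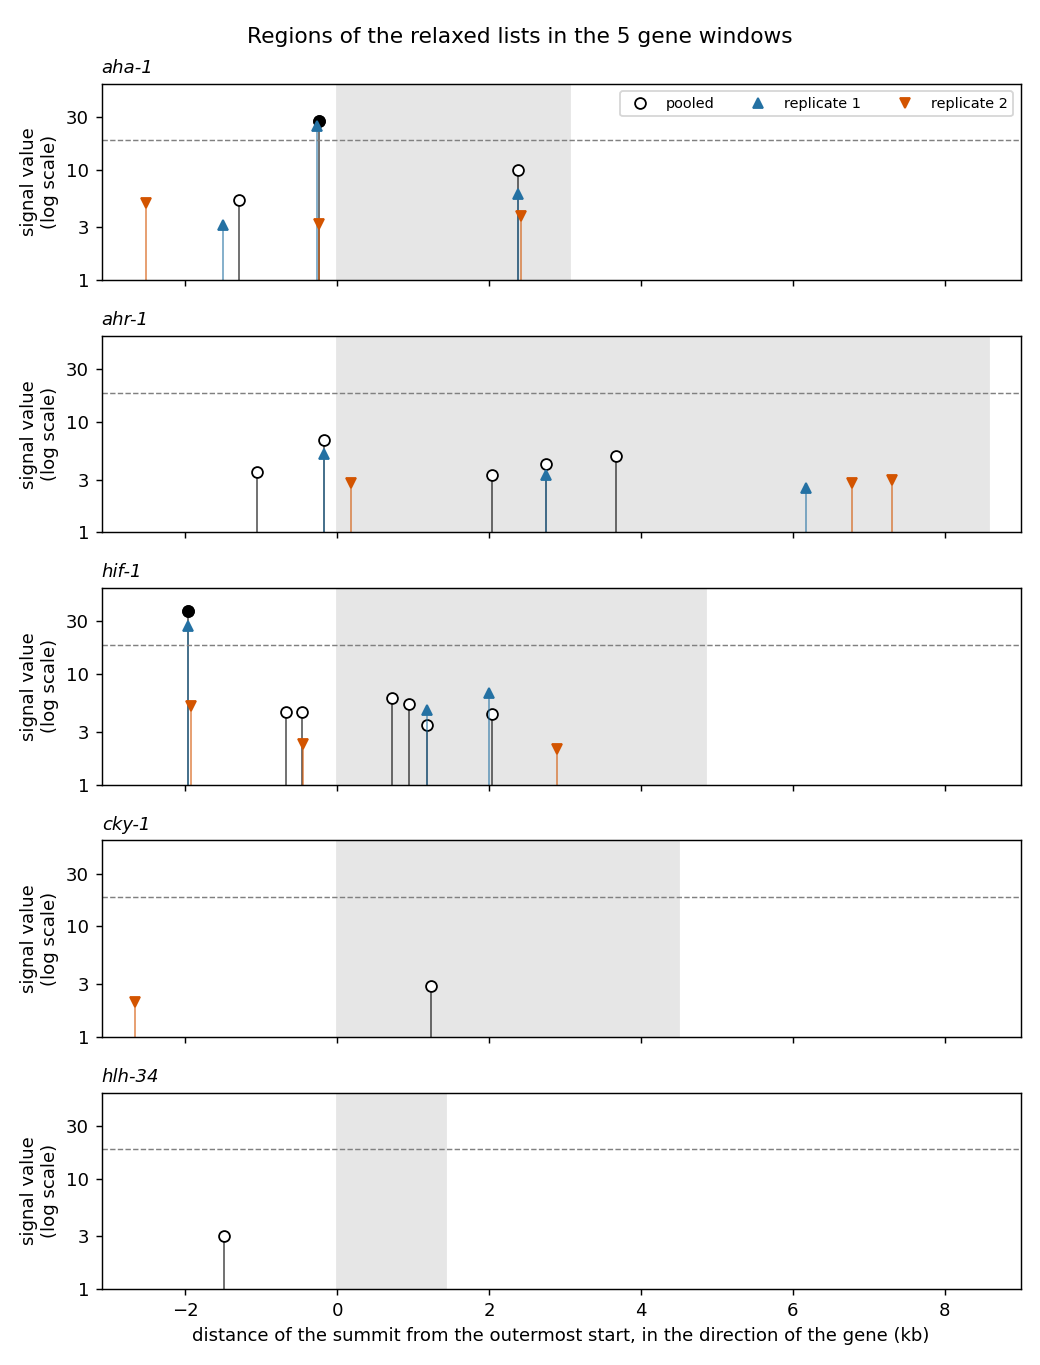
Signal value of every region in the 5 gene windows (log scale) against the distance of its summit from the outermost start, for the pooled list and both replicates; grey marks the gene, filled black circles are thresholded peaks, and the dashed line is the lowest thresholded signal (18.4, pooled list). The only filled circles are those 234 bp upstream of aha-1 and 1967 bp upstream of hif-1, and in both the replicate 2 signal is below the replicate 1 signal.

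aha-1, the gene of the immunoprecipitated factor, lies on chromosome I from 10193925 to 10196997 on the minus strand and has 1 annotated transcript. Its thresholded peak spanned 10197073 to 10197388 in intergenic sequence, with the summit 234 bp upstream of the start. The signal was 27.3 in the pooled list, 24.7 in replicate 1 (rank 120) and 3.20 in replicate 2 (rank 7047). Replicate 1 thus placed the site near the top of its list and replicate 2 placed it a little above its median of 2.88. The summits were close all the same, with replicate 2 at 2 bp and replicate 1 at 36 bp from the pooled one. The start of C25A1.15, a gene on the opposite strand, lay 324 bp from that of aha-1, and the summit was 90 bp upstream of it. The peak therefore sat in a shared upstream region, and the lists do not say to which gene it belongs.

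The other regions of aha-1 were weaker. One in an intron, 2388 bp downstream of the start, spanned 10194451 to 10194766 and had a pooled signal of 10.02 (rank 1532), with 6.06 in replicate 1 and 3.78 in replicate 2. It was the only region of any member below the threshold that overlapped a region of both replicates. Its replicate signals stood in a ratio of 1.60, near the median of 1.89 over the thresholded peaks found in both. A region 1289 bp upstream, inside an exon of the neighbouring gene Y106G6E.1, had a pooled signal of 5.28 and overlapped a region of replicate 1 only. Replicate 2 listed its own strongest region of the window 2520 bp upstream, in a coding exon of Y106G6E.1, with a signal of 4.98, and no pooled region overlapped it.

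hif-1, the gene of the hypoxia-regulated partner, lies on chromosome V from 20780407 to 20785260 on the plus strand, with 6 transcripts from 4 distinct starts. Its thresholded peak spanned 20778282 to 20778597 in intergenic sequence, and the summit was 1967 bp upstream of the nearest of those starts. The signal was 36.9 in the pooled list, 27.1 in replicate 1 (rank 98) and 5.19 in replicate 2 (rank 1515). The order was again that of aha-1, high in replicate 1 and lower in replicate 2. The replicate 1 summit was 2 bp and the replicate 2 summit 42 bp from the pooled one. The nearest other protein-coding start was that of F38A6.4, 3071 bp from the summit and on the opposite strand.

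Nearer to the start and inside the gene, hif-1 had 6 further pooled regions, with signals from 3.49 to 6.15. Regions 671 and 467 bp upstream had signals of 4.51 and 4.53, and both overlapped the same region of replicate 2 (signal 2.34) and none of replicate 1. The region 727 bp downstream, in an intron, had the highest signal of the 6, at 6.15 (rank 5692), and overlapped none of either replicate. The region 944 bp downstream, in a coding exon and 32 bp from an internal start, had 5.38. The last, 2043 bp downstream and 22 bp from another internal start, had 4.35 in the pooled list and overlapped a replicate 1 region of 6.75. With 7 pooled regions in 7854 bp, hif-1 had 0.891 regions per kb, and 1.78% of protein-coding genes had as many or more per kb. Over all genes the mean was 0.302 per kb in the pooled list. Some of the 7 overlapped a neighbouring one, and each replicate alone listed 3 regions in this window. The deposited −log10 q-values of the 6 further regions were 0.250 to 1.11, against 3.33 at the thresholded peak. As the relaxed list holds background too, the density is not a count of bound sites.

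ahr-1, on chromosome I from 9522550 to 9531132 on the plus strand, had 5 pooled regions and no thresholded peak. The strongest lay 174 bp upstream of the outermost start, spanning 9522218 to 9522533. Its signal was 6.91 in the pooled list and 5.11 in replicate 1 (rank 3811). Replicate 2 had no region there, and its nearest, 188 bp downstream of the start in an intron, had a signal of 2.82 (rank 9607). The promoter of ahr-1 thus carried a weak region in the pooled list and in 1 replicate. The others were 1056 bp upstream (signal 3.50) and in introns 2046, 2752 and 3674 bp downstream (signals 3.32, 4.14 and 4.89). The first of these intronic summits was 66 bp from an internal start of ahr-1.

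cky-1 and hlh-34 had 1 pooled region each, both near the weak end of the list. The region of cky-1, a gene on chromosome V from 12736703 to 12741205 on the plus strand, lay in an intron 1232 bp downstream of the start and had a pooled signal of 2.91. No replicate region overlapped it, and the only region of a replicate in that window, in replicate 2, lay 2658 bp upstream with a signal of 2.08. hlh-34 lies on chromosome V from 13705967 to 13707395 on the minus strand. Its region, 1484 bp upstream, had a pooled signal of 3.00 and was in neither replicate. The summit fell in a coding exon of T01D3.3, which runs on the opposite strand. A pooled region of any signal was present in the windows of 79.7% of protein-coding genes, so that having such a region does not set these members apart.

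**Figure D2:**
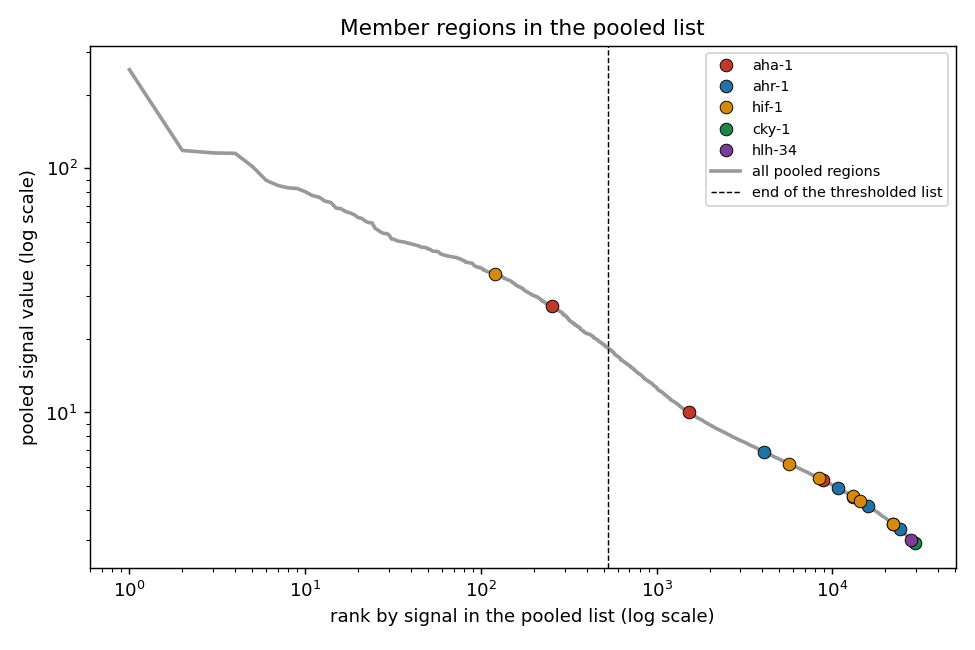
Pooled signal value against rank in the pooled list (both log scales), with the 17 regions of the members in colour on the curve of all 30000 regions; the dashed line ends the 530 thresholded peaks. The hif-1 and aha-1 peaks lie left of the line, and the other 15 regions, with signals of 2.91 to 10.02, lie right of it.

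Both thresholded member peaks stood lower in the list of replicate 2 than in that of replicate 1, and aha-1 more so. In replicate 2 the hif-1 region was within the top 8.33% of the list and the aha-1 region within the top 38.7%. In replicate 1 the values were 0.398% and 0.488%. Of the 530 thresholded peaks, 504 overlapped a region of both replicates and 26 had none in replicate 2. Over the 504, the median signal was 18.0 in replicate 1 and 9.50 in replicate 2, and the median ratio of replicate 1 to replicate 2 was 1.89. The ratio was 7.72 at the aha-1 peak, and 5 of the 504 peaks, itself included, had one as high. At the hif-1 peak it was 5.22, reached by 31 of the 504. In replicate 1, 22.5% of the thresholded peaks had a higher signal than the aha-1 peak and 18.3% a higher one than the hif-1 peak. In replicate 2 those shares were 91.3% and 82.1%. Among the 530 strongest regions of replicate 1 alone, aha-1 and hif-1 kept their peaks, where 4.15% of all protein-coding genes had one. Among the 530 strongest of replicate 2 alone, which end at a signal of 7.43, none of the 5 members had one, against 3.89% of protein-coding genes. Both member peaks thus ranked high in replicate 1 and outside the top 530 in replicate 2.

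**Figure D3:**
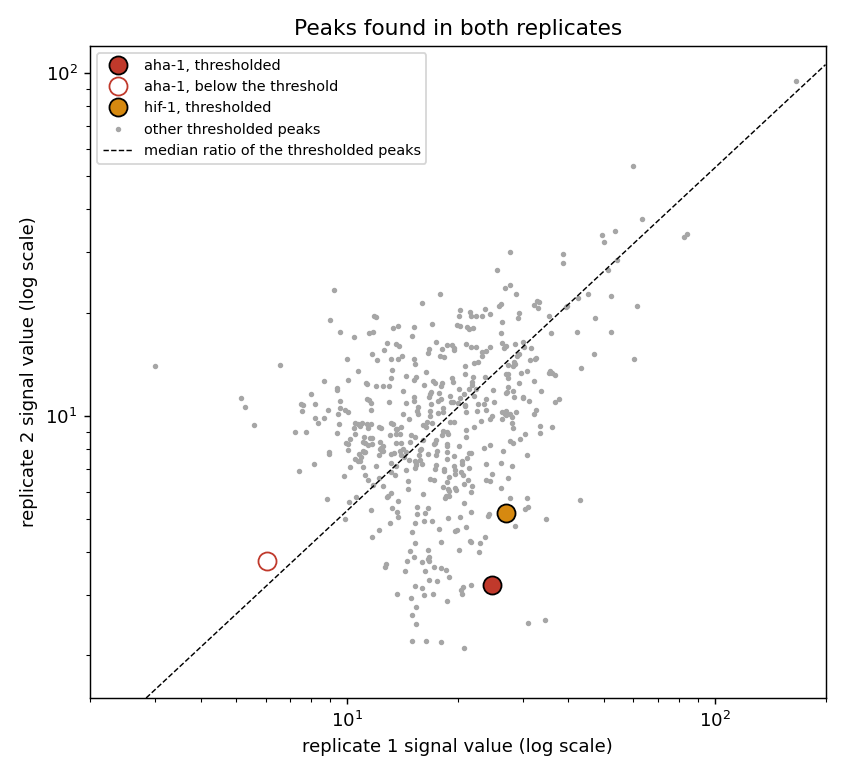
Replicate 2 signal value (vertical axis) against replicate 1 signal value (horizontal axis), both on log scales, for pooled regions found in both, with the thresholded peaks of aha-1 and hif-1 filled, the intronic aha-1 region open and the other thresholded peaks in grey; the dashed line is the median ratio, 1.89. The aha-1 peak (24.7 and 3.20) and the hif-1 peak (27.1 and 5.19) lie below the line, and the intronic aha-1 region (6.06 and 3.78) lies just above it.

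Few of the weak regions of the members were found in both replicates, as was the case for pooled regions below the threshold in general. Of the 17 pooled regions, 9 overlapped a region of replicate 1 and 5 one of replicate 2, and 6 overlapped none. Of the 15 below the threshold, 1 overlapped a region of both, against 13.8% of all pooled regions below the threshold. With so few regions this does not set the members apart. Replicate 1 listed 9 regions, in the windows of 3 members, where 72.6% of protein-coding genes had one, and 1 of the 9 overlapped no pooled region. Replicate 2 listed 10, in the windows of 4 members, where 64.8% of protein-coding genes had one, and 6 of the 10 overlapped no pooled region. The matching shares over all regions, for overlap with a single list or with none, were not computed. These overlap counts therefore describe the members and do not set them apart.

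Core words were sought within 50 bp of the 17 summits, on both strands. GCGTG was found at 2 of them. In the aha-1 peak it lay on the strand of the gene, 18 bp from the pooled summit, and a second copy lay 121 bp away on the other strand. GCGTG was present within 50 bp of the summit in 27.2% of thresholded peaks and 6.83% of all pooled regions, and in 6.70% of windows 400 bp to either side of the thresholded summits. The other was the exonic hif-1 region 944 bp downstream of the start, where the word lay 3 bp from the summit. Its sequence, chrV:20781301-20781401 on the plus strand, is shown because this word sits in coding sequence and not upstream of the gene, with the word, on the minus strand, in capitals as its reverse complement.
hif-1 exon: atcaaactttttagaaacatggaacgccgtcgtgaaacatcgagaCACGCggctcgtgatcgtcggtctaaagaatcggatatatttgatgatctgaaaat
ACGTG was within 50 bp of none of the 17 summits, against 19.8% of thresholded peaks and 9.23% of all pooled regions. CACGTG, which overlaps ACGTG by its letters, was likewise at none, against 4.72% of thresholded peaks and 1.93% of all pooled regions. Of the 17 regions, 15 were below the threshold, where the shares over all such regions were 9.04% for ACGTG and 1.88% for CACGTG. With so few regions, the absence of these words does not set the members apart. A word is a match of letters in the window searched, and nothing about the dimer at a site follows from its presence or absence. The share of G and C within 50 bp of the summit was 51.5% at the hif-1 peak and 37.6% at the aha-1 peak, against medians of 49.5% for the thresholded peaks and 34.7% for all pooled regions.

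The strain carries aha-1 in a transgene, and the surroundings of that gene were therefore examined too. Transgenes of this kind are usually built from a large genomic fragment and integrated together with a copy of unc-119, which rescues the movement of the mutant strain. The labels do not give the extent of the fragment or the origin of the marker. In the 40 kb centred on aha-1 the pooled list had 5 regions, against a median of 12 over 2503 tiles of 40 kb that cover the genome, and 97.5% of the tiles had as many or more. Replicate 1 had 10 regions there (tile median 10) and replicate 2 had 8 (tile median 7), and 51.1% and 44.8% of tiles had as many in those lists. The 40 kb around unc-119 had 22 pooled regions, 26 in replicate 1 and 13 in replicate 2, with 1.72%, 0.0799% and 4.39% of tiles as rich. An intron of unc-119 held a thresholded peak from 10905164 to 10905479 on chromosome III. Its pooled signal was 19.9, and replicate 2 had 19.4 there, at rank 44. The strongest overlapping region of replicate 1 had 11.9, but its summit lay outside the peak. The replicate 1 region closest to the pooled summit had 5.95 (rank 2521). Sequence from transgene copies and from the endogenous aha-1 locus cannot be told apart in these lists. The other members had 10 to 16 pooled regions in 40 kb.

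**Figure D4:**
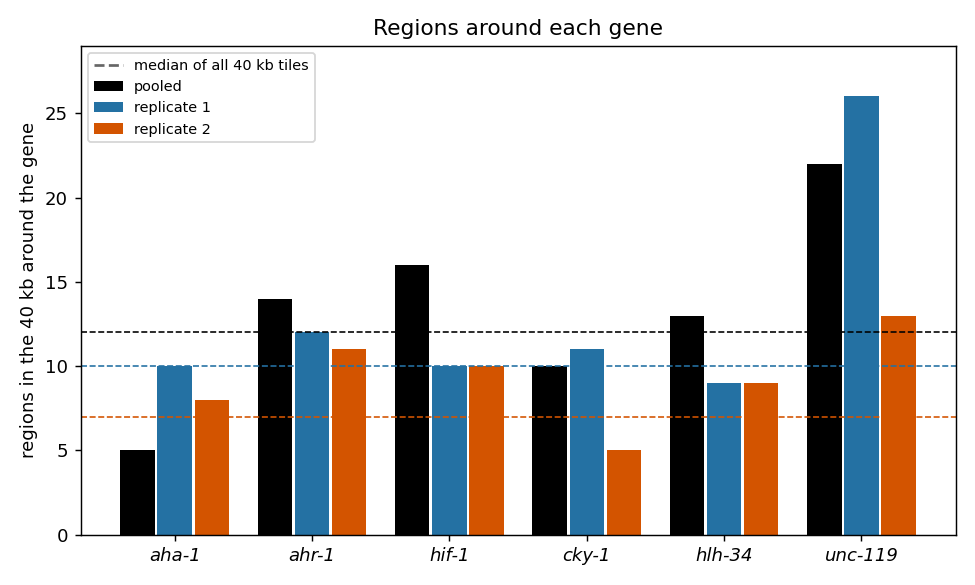
Number of regions in the 40 kb centred on each gene in the pooled list and the replicates, with dashed lines at the median of all 40 kb tiles for each list (12, 10 and 7). The aha-1 bars stand at 5, 10 and 8, and those of unc-119, the marker gene of the strain and no member, at 22, 26 and 13.

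The thresholded peaks nearest in pooled signal to those of the members were read from the pooled list, 2 for each. Those nearest to the aha-1 peak (27.26) had signals of 27.25 and 27.28 and lay closest to the starts of T24B8.3 and eif-3.B, a translation initiation factor subunit gene. The T24B8.3 peak had 24.2 in replicate 1 and no region in replicate 2, and that of eif-3.B had 21.4 and 7.06. Those nearest to the hif-1 peak (36.86) had signals of 36.79 and 36.73 and lay closest to tbc-12, at 4179 bp, and eef-1A.2, a translation elongation factor gene, at 356 bp. Their replicate signals were 28.1 and 9.92 for tbc-12 and 17.0 and 18.6 for eef-1A.2.

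Genes of the HIF-1 pathway, a chaperone gene, another PAS gene and other bHLH genes, listed by name, were read by the same window rule. Of 8 genes that control HIF-1 abundance or activity, 2 had a thresholded peak, where the share over all protein-coding genes was 4.21%. These were egl-9, the prolyl hydroxylase gene, and rhy-1, a gene that restrains HIF-1. The egl-9 peak had a signal of 254, at rank 1 of the pooled list, with 167 in replicate 1 and 94.9 in replicate 2. The rhy-1 peak had 40.8, and its replicate signals of 22.4 and 15.9 were nearer to each other than those of hif-1. Among the rest, elc-1, the elongin C gene, had the strongest region, with a signal of 12.1 (11.1 in replicate 1 and none in replicate 2). Of hsp-90, the chaperone gene whose product holds the aryl hydrocarbon receptor in mammals, and lin-42, the gene of a PAS protein related to Period, hsp-90 had a thresholded peak (signal 51.4). The strongest region of lin-42, 5301 bp downstream of its outermost start, had a signal of 17.7, below the lowest thresholded signal of 18.4, with 14.6 in replicate 1 and 3.29 in replicate 2. Among 36 other bHLH genes 3 had a thresholded peak, or 8.33%. The strongest, with a signal of 102 (rank 5), lay in hlh-30, the gene of a TFEB-related factor, and was above every region of the members. It had 63.2 in replicate 1 and 37.4 in replicate 2. The others were hlh-11 (signal 24.7) and mdl-1 (signal 24.0), whose product is related to the Myc antagonist Mad. The median of the strongest signal per gene was 6.91 over the 5 members, all with a region, against 5.82 over the 27 of these 36 genes that had a pooled region and 5.33 over all protein-coding genes with one.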

How the data were processed

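Peak lists from 2 biological replicates of L1 larvae in 1 group were used, with replicate numbers and the fragment size of 150 to 350 bp taken from the labels. The deposited narrowPeak lists on ce11 give a signal value and a −log10 q-value per region, relaxed for each replicate and for both pooled, and thresholded by IDR, per the labels and the descriptive text deposited with them. The aligner, peak caller, IDR threshold and depth are not given in the sources used here, and the precision of a signal is therefore unknown. The −log10 q-value was not used for ranking. Lists on ce10 were not used here. Summits were compared with Ensembl release 115 (WBcel235, the ce11 assembly; 6 chromosomes) and the reference sequence in python 3.11.15 with pandas 2.3.3, in 1-based coordinates. Replicate regions were matched to pooled regions by an overlap of at least 1 bp, taking the strongest. Window assignment and word search were checked on simulated regions. The members, the gene lists and the rule for naming genes (the members, the genes nearest to their peaks, unc-119, the peaks nearest in signal, and list genes with a thresholded peak) were chosen with earlier results of these data known; elc-1 and lin-42 were named after their values were seen. Alternatives were other windows, assignments and overlaps, the 265 strongest thresholded peaks and each replicate alone.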

Additional observations from a re-analysis of the deposited data

How the results depend on the processing

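No paired analysis was possible because there is 1 group and no comparison between groups. Of the members, aha-1 and hif-1 had a peak with 5 kb upstream (5.36% of genes) and with any overlap of the region (4.43%). Both also had one among the 265 strongest thresholded peaks (2.12% of genes), where the aha-1 peak, at rank 255, was near the cut. With 1 kb upstream, or with 1000 bp upstream to 200 bp downstream of any transcript start, 1 member (aha-1) had one, and with nearest starts alone 1 member (hif-1). With 1 replicate left out the count was 0 to 2, and it was 0 without replicate 1. The number of protein-coding genes with a peak, 840, was 546 with transcript starts, 441 with nearest starts and 423 with the 265 strongest peaks. The 17 pooled regions of the members became 9 with transcript starts, and 9 to 10 with 1 replicate left out. With 1 replicate left out, the rank of the strongest region was 120 to 1742 for aha-1, 3811 to 8440 for ahr-1 and 98 to 1515 for hif-1, and 17206 for cky-1 in replicate 2 alone. In replicate 2 the strongest regions of aha-1, ahr-1 and cky-1 were other sites than in the pooled list. The aha-1 peak itself ranked 7047 there. The lists also differ in length. ACGTG or GCGTG was in 5 of the 17 regions over their whole length. Each word was also present over that length in many other pooled regions. The share of all pooled regions with either word was not computed, so this count does not set the members apart. The share of tiles with at least as many regions as around a gene was 54.7% for ahr-1 in 20 kb and 32.3% for hif-1 in 80 kb. With 1 replicate left out it was 44.8 to 51.1% for aha-1, 13.2 to 31.4% for ahr-1, 21.2 to 51.1% for hif-1 and 41.3 to 82.7% for cky-1. For unc-119 it was 0.0799 to 4.39% over all these settings. The causes were not tested. Depth is unknown, so a missing region in a replicate does not show that AHA-1 was absent there.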

Other observations

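Outside the windows, the thresholded peak closest to the start of hlh-34 was 28664 bp away, on chromosome V from 13678573 to 13678888, with a signal of 30.2, and its nearest protein-coding start was that of tag-65. For ahr-1 the distance was 97448 bp, to a peak nearest to nra-2 (signal 27.1), and for cky-1 it was 100240 bp, to a peak nearest to F56H9.2 (signal 22.7).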
